A study of Mus musculus with 2 samples.

Results

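Cycling Wt1-positive cells are cells of gonadal fat that carried RNA of Wt1, a transcription factor of the mesothelium and of visceral stroma, together with RNA of the division machinery. They were chosen as cells with a Wt1 UMI (a counted RNA molecule), no UMI of the leukocyte gene Ptprc, no UMI of the endothelial gene Pecam1, and a UMI of at least 4 of 10 genes of dividing cells (Mki67, Top2a, Birc5, Cenpf, Cdk1, Ccnb2, Nusap1, Tpx2, Ube2c and Prc1). The rule found 1821 such cells, here called members, among 18753 cells kept and 9801 Wt1-positive cells. They were 1059 of 10216 cells (10.4%, 95% interval 9.781 to 10.97%) in the library from mice on a low-fat diet (LFD, 10% fat) and 762 of 8537 cells (8.93%, 8.33 to 9.55%) in the library from mice on a high-fat diet (HFD, 60% fat).

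The study followed activity of the aryl hydrocarbon receptor (AHR) in perigonadal white adipose tissue (gWAT). Male mice of the genotype Cyp1a1Cre x R26LSL-eYFP were on either diet for 12 weeks, and both diet groups received the AHR ligand FICZ (10 mg/kg) 5 days before the tissue was taken. Cre driven by Cyp1a1, an AHR target gene, turns on eYFP permanently, so an eYFP+ cell or one of its ancestors had active Cyp1a1 at some time, and daughters of a labelled cell keep the label. Live eYFP+ cells of the stromovascular fraction, which lacks mature adipocytes, were sorted and sequenced with the 10x 3' v3 chemistry as 1 library per diet, pooled from mice that cannot be told apart. No comparison between diets therefore has a replicate, and none has a test. All intervals are exact 95% intervals and cover counting error only.

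A dividing cell first licenses its origins of replication with the MCM complex, then copies its DNA with polymerases, clamp and nucleotide enzymes, and then condenses, aligns and parts its chromosomes with cyclin B and CDK1, kinetochores and spindle motors. E2F factors drive many genes of the first steps, and the MuvB complex, with B-MYB and FOXM1, drives many genes of the last steps through cell cycle homology regions (CHR) in their promoters, often beside CCAAT boxes. Mesothelium is the keratin-rich sheet over serosal surfaces, gonadal fat included, and Wt1 is also found in stromal cells of visceral fat.

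The promoters of genes that mark the members are shown here because their letters differ between the mitotic and the replication genes. Each runs 5′ to 3′ on the gene's own strand in RefSeq GRCm38.p6, from 130 bases before to 20 after the start. Capitals mark the letters of a CHR (TTTGAA, or TTCAAA on the other strand), a CCAAT box (CCAAT or ATTGG) and an E2F element (TTTGGCGC or TTTCCCGC, or GCGCCAAA or GCGGGAAA). Cdk1, Top2a and Ccnb2 belong to the rule, Cdc20 (the activator of the anaphase-promoting complex) and Hmmr (a spindle protein) are mitotic genes outside it, and Mcm6 and Pclaf act at origins and forks.
Cdk1 (chr10:69352893-69353042, minus strand): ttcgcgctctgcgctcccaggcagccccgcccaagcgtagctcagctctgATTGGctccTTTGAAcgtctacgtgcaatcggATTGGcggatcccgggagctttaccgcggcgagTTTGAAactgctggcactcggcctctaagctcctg
Top2a (chr11:99024170-99024319, minus strand): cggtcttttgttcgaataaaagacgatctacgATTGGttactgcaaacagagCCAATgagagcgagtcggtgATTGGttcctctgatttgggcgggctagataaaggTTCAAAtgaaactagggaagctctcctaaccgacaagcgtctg
Ccnb2 (chr9:70421535-70421684, minus strand): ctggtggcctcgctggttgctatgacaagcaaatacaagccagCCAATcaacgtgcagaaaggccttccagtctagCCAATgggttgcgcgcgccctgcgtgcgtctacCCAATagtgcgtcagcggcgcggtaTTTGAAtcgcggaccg
Cdc20 (chr4:118437324-118437473, minus strand): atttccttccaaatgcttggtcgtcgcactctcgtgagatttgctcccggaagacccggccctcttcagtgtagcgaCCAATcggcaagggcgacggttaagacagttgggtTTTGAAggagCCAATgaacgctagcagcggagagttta
Hmmr (chr11:40733418-40733567, minus strand): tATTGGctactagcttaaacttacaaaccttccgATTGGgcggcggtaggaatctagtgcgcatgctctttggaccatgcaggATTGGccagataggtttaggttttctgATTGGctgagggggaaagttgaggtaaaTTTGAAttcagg
Mcm6 (chr1:128359686-128359835, minus strand): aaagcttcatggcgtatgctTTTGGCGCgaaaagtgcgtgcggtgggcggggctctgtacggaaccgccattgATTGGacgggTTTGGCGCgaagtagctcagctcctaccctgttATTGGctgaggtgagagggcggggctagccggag
Pclaf (chr9:65890193-65890342, plus strand): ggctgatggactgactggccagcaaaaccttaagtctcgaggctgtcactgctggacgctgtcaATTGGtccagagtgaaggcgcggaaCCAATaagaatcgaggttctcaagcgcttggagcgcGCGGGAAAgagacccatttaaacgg
The promoters of Cdk1, Top2a, Ccnb2, Cdc20 and Hmmr hold CHR and CCAAT letters, whereas Mcm6 and Pclaf hold E2F and CCAAT letters and no CHR letters. Windows of 300 bases (250 before to 50 after the start, both strands searched) were found for 9 of the 10 rule genes, and CHR letters stood in 77.8% of them. The CHR share was 61.5% of 65 genes of the mitosis lists, 22.2% of 45 genes of the replication lists and 14.2% of 9714 measured genes with a window. E2F letters of either form stood in 6.15% of the mitosis genes, 31.1% of the replication genes and 3.59% of the measured genes. CCAAT letters were common throughout, at 72.3%, 57.8% and 43.3%. A match describes letters and shows no binding.

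Cells were spread over the whole range of the rule. Of the LFD members 132 had exactly 4 of the 10 genes and 206 had all 10, and the HFD numbers were 138 and 187. Just outside the rule stood 279 LFD and 203 HFD cells with 3 of the 10. The summed level of the 10 genes, in counts per 1000000 UMIs of the class (CPM), was 358 just outside and 543 just inside in LFD, and 285 and 454 in HFD, against 1860 and 1994 in all members. Non-cycling cells, with at most 1 of the 10 genes, were 3959 and 2472, and their sums were 36.1 and 28.7 CPM. These values chose the cells and support nothing. A UMI of a leukocyte or endothelial gene, or no Wt1 UMI, kept out the remaining cells with at least 4 of the 10 genes, of which there were 1876 LFD and 1714 HFD cells in all, members included. Counted from all UMIs, 292 LFD and 279 HFD Wt1-positive cells with fewer than 4 of the 10 rule genes had at least 3 of 6 replication genes. The rule did not use these replication genes. Of these cells 154 and 155 were non-cycling, 3.89% and 6.27% of that class. With each cell thinned to the same number of UMIs, the non-cycling shares were 0.41% and 0.42%. Whether the rule favours late stages was not tested. The libraries shared 22 barcodes among kept cells and 1 among members.

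**Figure D1:**
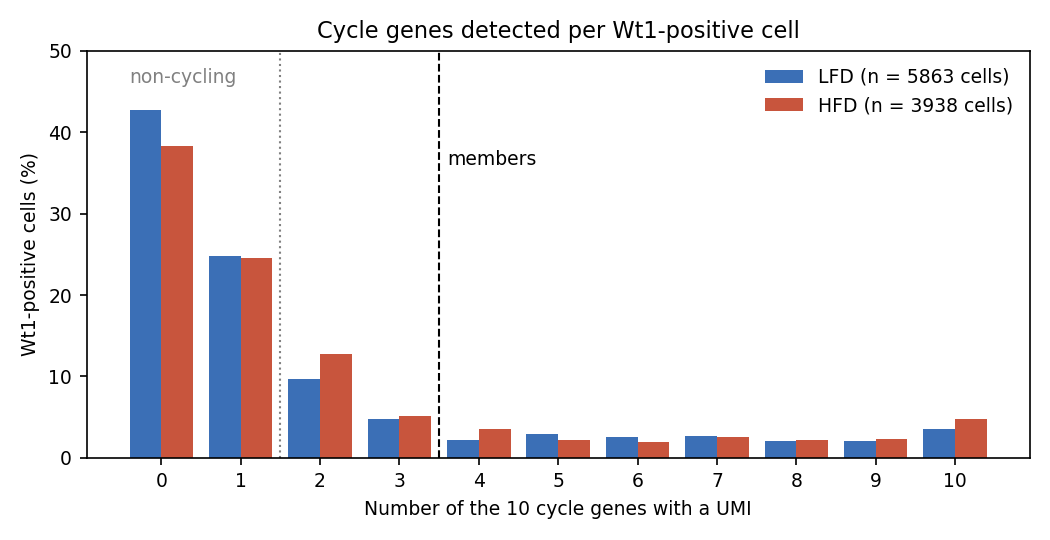
Wt1-positive cells by the number of the 10 cycle genes with a UMI, as a percent of the Wt1-positive cells of each library (bars, LFD blue, HFD red). Members lie right of the dashed line, where each bar from 4 to 9 genes holds 118 to 170 LFD or 75 to 138 HFD cells and the bar at all 10 genes is the tallest, with 206 and 187 cells.

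Members carried RNA of stroma and of mesothelium. Collagens and other matrix genes summed to 31330 CPM in LFD and 27740 in HFD members, against 42240 and 38270 in non-cycling cells. In cycling Ptprc-positive cells, of which there were 282 and 555, the sums were 1273 and 539.7 CPM. Mesothelial genes summed to 1180 and 1989 CPM in members, 1021 and 1962 in non-cycling and 213 and 179 in cycling Ptprc-positive cells. The rule excluded Ptprc, so the contrast with Ptprc-positive cells was close to fixed. The sums that follow are of members. The 8 markers of T and innate lymphoid cells summed to 4.98 and 9.15 CPM, with the T cell receptor gene Cd3g at 0 in both libraries. The 9 macrophage markers summed to 117 and 61.4 CPM, against 156 and 120 CPM in non-cycling cells. Endothelial markers summed to 46.02 and 67.1 CPM, of which Esam, at 35.4 and 58.1 CPM, gave most and the endothelial cadherin Cdh5 1.15 and 0.996 CPM. Mural markers summed to 328 and 410 CPM, against 348 and 349 CPM. B and plasma cell markers stood at 2583 and 2826 CPM, against 873 and 1909 in non-cycling cells. Of these counts 80.4% in LFD and 66.5% in HFD lay in 22 and 15 members with over 30 such UMIs per 10000, of which a doublet caller marked 17 and 8. The median cell was at a like level in both classes, 5.02 against 5.20 UMIs per 10000 in LFD and 9.53 against 10.2 in HFD. No immunoglobulin gene is described further.

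Members were large libraries. Their median was 16700 UMIs and 4100 genes in LFD and 20420 UMIs and 4744 genes in HFD, against 11560 and 3253, and 15660 and 4024, in non-cycling cells. Since the mean cell held 1.44 times as many UMIs in LFD and 1.36 times in HFD, a gene with the same UMIs per cell in both classes has a CPM ratio of 0.696 or 0.734. Ratios below are of CPM, so a lower CPM does not by itself mean fewer molecules per cell. The median mitochondrial share was 5.42% in LFD and 5.41% in HFD members, against 5.98% and 5.63% in non-cycling cells. Doublet marks were the more frequent among members, on 124 of 1059 LFD and 85 of 762 HFD members. Of non-cycling cells 262 of 3959 and 114 of 2472 were marked.

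The cycling share of Wt1-positive cells was 18.1% (17.1 to 19.1%) in LFD and 19.3% (18.1 to 20.6%) in HFD, an HFD to LFD ratio of 1.07 (0.975 to 1.18). The rule counts genes with a UMI, so it depends on the depth of a cell, which differed between libraries. Among cells with 10000 to 20000 UMIs the share was 17.2% (16.0 to 18.4%) in LFD and 14.1% (12.8 to 15.6%) in HFD, a ratio of 0.823 (0.720 to 0.940). Above 20000 UMIs it was 59.3% of 523 LFD cells and 35.3% of 1125 HFD cells, a ratio of 0.595 (0.512 to 0.693). Each cell was then thinned to 5000 UMIs, with at least 2 of the 10 genes required. With Wt1, Ptprc and Pecam1 also read from the thinned counts, the share was 20.5% of 4667 and 20.7% of 3281 cells (ratio 1.01, 0.913 to 1.11). With the Wt1-positive class read from all UMIs it was 21.1% and 20.4% (ratio 0.969, 0.885 to 1.06). Among cells with under 5% mitochondrial UMIs it was 29.6% and 23.2%, a ratio of 0.784. The direction of the diet difference thus changed with the cells kept. Cells with a UMI of Clec3b, Pi16, Dpp4 or Col14a1, genes known from fibroblasts but not specific to them, were 25.4% of non-cycling cells in LFD and 59.9% in HFD, but 27.3% and 41.3% of members. Such a UMI was also found in 32.3% and 30.1% of cycling Ptprc-positive cells, so it does not mark a cell type. Without the cells holding one the cycling share was 17.5% and 24.6%, a ratio of 1.40. Such cells were 57.1% and 74.3% of keratin-high Wt1-positive cells (at least 10 keratin UMIs per 10000) against 22.4% and 50.3% of the others, so leaving them out also takes away keratin-high cells.

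**Figure D2:**
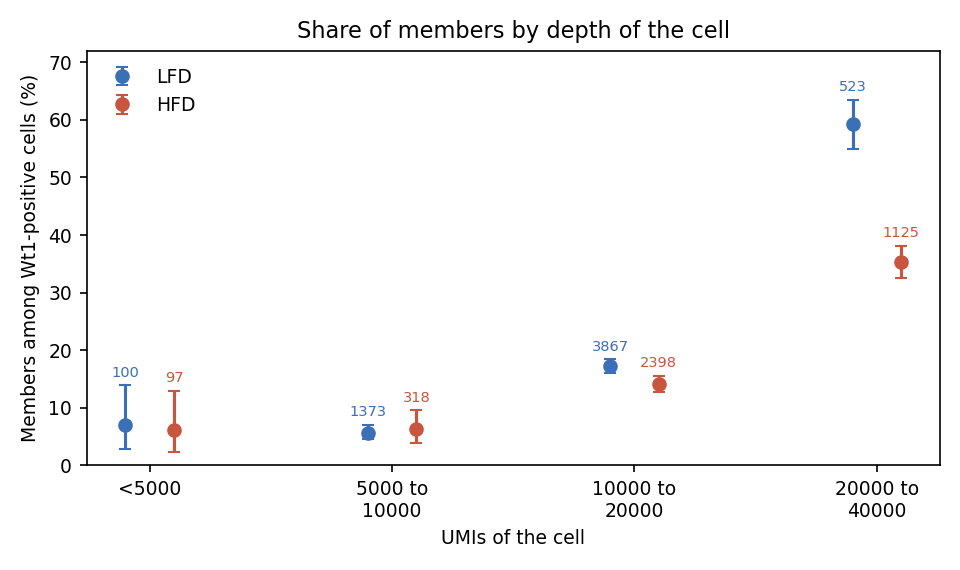
Share of members among Wt1-positive cells (points, with exact 95% binomial intervals) by the UMIs of the cell, LFD blue and HFD red, with the number of cells above each point. Shares below 10000 UMIs overlap between libraries, and above 20000 UMIs the LFD share of 59.3% stands above the HFD share of 35.3%.

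The division machinery set the members apart from the non-cycling cells far beyond the 10 genes of the rule. Of 12484 measured genes (at least 50 UMIs in both classes together in each library, rule genes left out), 509 (4.08%) were at least 2-fold higher in members in both libraries, with the interval beyond 1. A further 307 (2.46%) were at least 2-fold lower. The median gene had a ratio of 0.990 in LFD and 0.998 in HFD. Genes that travel with the 10 rule genes had to be higher in cells chosen by them, so these counts describe the members and test nothing. Of 174 measured genes in the lists of the cell cycle, rule genes left out, 156 were higher and none was lower in this sense, and 353 higher genes stood outside the lists. With the rule genes the lists took 1.63% of all UMIs in LFD and 1.69% in HFD members, against 0.351% and 0.350% in non-cycling cells.

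Origin licensing came first in order and was among the weaker lists. Of 19 genes 18 were at least 2-fold higher, with a median ratio of 4.37 in LFD and 4.39 in HFD. Mcm6, a subunit of the replicative helicase, stood at 84.0 CPM in LFD and 90.03 in HFD members, against 24.6 and 31.3 in non-cycling cells. Mcm5, of the same ring, was at 65.6 and 62.7 against 7.95 and 8.29 CPM. Mcm10, which activates the helicase at the origin, had the highest ratio of the list in LFD, 17.6. Orc6, of the origin recognition complex, was just short of the threshold, at 2.00 and 1.96. The level of licensing genes in non-cycling cells, 199 and 230 CPM summed, was above the 25.2 and 27.5 CPM of mitotic entry, the 74.5 and 58.9 CPM of kinetochores and the 55.9 and 61.01 CPM of the spindle list.

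Replication forks and precursor supply followed the same pattern. Of 22 genes of forks and polymerases 20 were higher, with medians of 3.17 in both libraries. Pcna, the sliding clamp, was at 199 and 207 CPM in members against 61.7 and 67.4 CPM in non-cycling cells. Pole, the leading-strand polymerase, had the highest ratio in LFD, 17.4, and Rfc1, the large clamp loader subunit, was under the threshold at 1.65 and 1.61. All 14 genes of nucleotide supply and chromatin assembly were higher, with medians of 5.07 and 5.17. Rrm2, the regulated subunit of ribonucleotide reductase, stood at 108 and 122 CPM against 3.596 and 3.03 CPM. Tk1, which salvages thymidine, was at 96.6 and 99.2 against 3.83 and 2.46 CPM. Tyms, which makes thymidylate, was already at 45.9 and 43.1 CPM in non-cycling cells and reached 208 and 201 CPM.

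Replication-dependent histones package newly copied DNA. Of 19 listed, 13 were measured and 10 were higher. Hist1h1b, a linker histone, was at 26.7 and 43.7 CPM in members against 1.05 and 1.78 CPM. Hist1h2ap was at 75.3 and 34.5 against 1.22 and 0.993 CPM. Hist1h2bc did not follow, with ratios of 0.749 and 0.781 and 148 and 156 CPM in non-cycling cells. Histones are near-identical copies, so reads of one can be counted for another or dropped.

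Mitotic genes had the steepest contrasts, against near-silent non-cycling cells. The 12 highest genes by rule were Hmmr, Pimreg, Pbk, Kif2c, Plk1, Ccna2, Ccnb1, Esco2, Sapcd2, Knl1, Ska1 and Bub1. All 18 genes of mitotic entry were higher, with medians of 44.6 in LFD and 50.2 in HFD. Ccnb1, cyclin B1, stood at 145 and 131 CPM in members against 1.56 and 1.36 CPM. Plk1, the kinase that matures spindle poles, was at 65.1 and 60.8 against 0.568 and 0.314 CPM. Pbk, a mitotic kinase, had ratios of 136 (90.04 to 215) and 375 (172 to 1025). Wee1, which holds CDK1 back, had the lowest ratios of the list, 2.74 and 2.84.

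All 24 genes of kinetochores and centromeres and all 24 of the spindle and cytokinesis were higher. The kinetochore median was 21.6 in LFD and 24.5 in HFD. Cenpa, the centromeric histone, was at 291 and 295 CPM against 10.9 and 9.88 CPM. Ska1 and Knl1, of the outer kinetochore, had LFD ratios of 106 and 78.8. The spindle median was 35.9 and 41.4. Hmmr led all genes by the bound nearest 1, at 163 and 162 CPM against 1.03 and 0.523 CPM, ratios of 159 (120 to 215) and 311 (201 to 509). Kif2c, a microtubule depolymerase, was at 36.2 and 39.5 against 0.231 and 0.209 CPM. Ckap5, a microtubule polymerase used by every cell, had the lowest ratio in HFD, 2.87.

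Chromosome structure and mitotic exit were mixed. Of 14 genes of condensins and chromatin 10 were higher. Ncapg, a condensin subunit, was at 40.1 and 43.3 CPM against 1.20 and 1.05 CPM. H2afz, a histone variant, was the most abundant cycle gene, at 2109 and 2133 against 543 and 452 CPM. Hmgb1, Hmgn2 and H2afv were past 2-fold in HFD and just under it in LFD, with ratios from 1.92 to 2.34, and Cbx5, a heterochromatin protein, was at 1.53 and 1.36. Of 12 genes of mitotic exit 11 were higher. Cdc20 stood at 196 and 176 CPM against 2.82 and 3.11 CPM. Pttg1, securin, which is cleaved at anaphase, had ratios of 0.982 and 1.04, the one gene of the list with near-equal CPM in both classes.

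Entry into the cycle showed a different mix. Of 14 genes of the D and E cyclins, their kinases and E2F factors 7 were higher, namely Ccne1, Ccne2, E2f1, E2f2, E2f7, E2f8 and Skp2. E2f7 and E2f8, E2F targets that repress E2F genes, had the highest ratios, 35.6 and 32.1 in LFD. The D cyclins, which answer growth signals, did not pass in both libraries. Ccnd3 was at 54.0 and 54.6 CPM against 47.5 and 52.8 CPM, and Ccnd1 at 21.0 and 42.7 against 9.91 and 26.1 CPM. Ccnd2 was at 26.4 and 26.9 CPM in members, against 815 and 810 CPM in cycling Ptprc-positive cells, and Ccnd1 went the other way, at 4.13 and 1.75 CPM there. Of 16 cyclin-dependent kinase inhibitors and quiescence genes 2 were higher and none lower. Cdkn2d, the INK4 inhibitor p19, had ratios of 4.18 and 3.501, and Rbl1, the pocket protein p107, 4.38 and 3.40. Cdkn1a (p21), at 49.2 and 67.5 CPM against 73.0 and 83.1 CPM, and Btg2, an antiproliferative gene, at 265 and 304 against 532 and 477 CPM, did not pass the threshold.

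**Figure D3:**
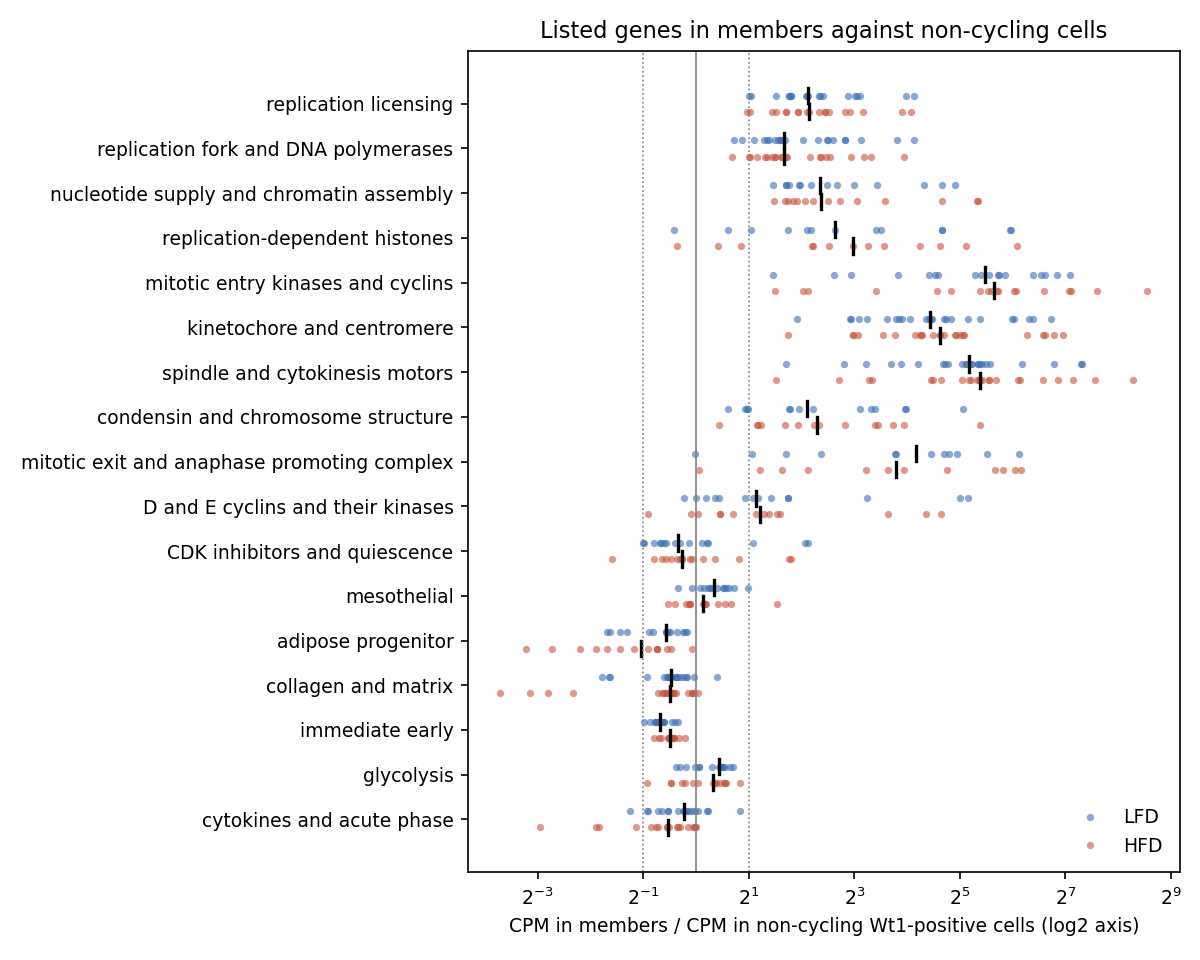
Ratio of CPM in members to CPM in non-cycling Wt1-positive cells (log2 axis) for the measured genes of 17 lists, 1 point per gene, LFD blue and HFD red, with the median of each list as a black bar and dotted lines at 2-fold. The medians of mitotic entry, kinetochore and spindle genes, 21.6 to 50.2, lie right of those of the replication lists, 3.17 to 7.82, the condensin list overlaps the latter at 4.27 and 4.87, and the medians of adipose progenitor, matrix and immediate early genes lie left of 1.

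The 12 highest genes outside the cell cycle lists were Pimreg, Esco2, Sapcd2, Depdc1a, Pclaf, Cep55, Shcbp1, Dlgap5, Mxd3, Pif1, Troap and Neil3. Esco2, which ties sister chromatids together, was at 23.4 and 25.2 CPM against 0.168 and 0.105 CPM. Cep55, which acts at the final cut between daughters, was at 30.5 and 38.5 against 0.3996 and 0.288 CPM. Pclaf, which binds the clamp PCNA, was the most abundant of them at 338 and 339 against 6.04 and 2.98 CPM. Mxd3, of the MAX network, was at 31.9 and 27.2 against 0.484 and 0.131 CPM.

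The 12 genes lowest in members by rule were Mfap4, Sfrp1, Sult1a1, Fxyd1, Mfap2, Dpep1, Pdgfrl, Pla1a, Tcp11l2, Ggt5, C4b and Smpdl3a. Mfap4 and Mfap2 make microfibril proteins of elastic fibres. Mfap4 was at 1.09 CPM in LFD and 3.48 in HFD members, against 12.3 and 44.3 CPM, and Mfap2 at 15.3 and 13.5 against 65.6 CPM in both libraries. Sfrp1, a secreted antagonist of Wnt ligands, was at 8.65 and 12.5 against 43.4 and 86.7 CPM, ratios of 0.199 (0.168 to 0.234) and 0.144 (0.124 to 0.166). C4b, a complement component, was at 9.03 and 12.2 against 34.6 and 61.01 CPM. Without cells holding a UMI of Clec3b, Pi16, Dpp4 or Col14a1, an alternative chosen after seeing the data, the ratio of Mfap4 was 0.324 in LFD and 0.658 in HFD, that of Sfrp1 0.365 and 0.662 and that of Pdgfrl 0.321 and 1.09, so these 3 did not pass in HFD. The HFD ratio of Mfap2 was then 0.335 and that of C4b 0.358. With the highest doublet scores removed instead, the LFD ratio of Mfap4 was 0.0393, against 0.0887 in the main setting.

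Among 14 adipose progenitor genes 4 were at least 2-fold lower and none higher, and 13 had the interval below 1 in both libraries, where 22.6% of all measured genes did. Pi16 and Clec3b, of interstitial progenitors, were lower, Clec3b at 7.44 and 16.9 CPM against 20.2 and 158 CPM. Dpt and Lum, matrix proteins, were lower too, Lum at 111 and 185 against 345 and 594 CPM. Dcn, decorin, was at 3275 and 3828 against 6034 and 7171 CPM. Pdgfra, the receptor that marks progenitors, was at 287 and 227 CPM against 428 and 240 CPM. Tcf21, a transcription factor of visceral stroma, was at 0.274 and 1.12 against 1.01 and 6.09 CPM, while Gata6 was at 251 and 332 CPM in members and 264 and 322 CPM in non-cycling cells. Cells with a UMI of Clec3b, Pi16, Dpp4 or Col14a1 made up 59.9% of HFD non-cycling cells, and without these cells in any class the number of lower genes was 137.

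Of 20 collagen and matrix genes 3 were lower, Col14a1, Postn and Mmp2. Col3a1, the most abundant, was at 8460 and 8278 CPM against 12320 and 12490 CPM, and the list median was 0.721 and 0.708. Timp1, an inhibitor of matrix proteases, had the highest ratio, 1.32 and 1.03. Among 21 growth factor ligands and receptors Areg, Igf1, Fgf7 and Hgf were lower and none higher. Igf1 was at 89.4 and 45.1 CPM against 295 and 159 CPM, and Fgf7, a growth factor for epithelia, at 1.70 and 1.18 against 5.87 and 7.50 CPM. Met, the receptor of Hgf, and Egfr, the receptor of Areg, did not pass, Egfr at 122 and 132 against 163 and 156 CPM.

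Cytokine and acute phase genes had 1 lower member of 18, Cxcl13, a chemokine for B cells, at 40.0 and 14.7 CPM against 94.8 and 54.8 CPM. Il6 was at 100 and 123 against 164 and 224 CPM, and Saa3, an acute phase protein, at 9623 and 2658 against 14980 and 3869 CPM. All 15 immediate early genes had ratios below 1 with the interval below 1 in both libraries, and none reached 2-fold. Their medians, 0.627 and 0.714, are close to the ratio at equal UMIs per cell. Fos was at 1403 and 1110 CPM against 1928 and 1490 CPM. Rarres2, which encodes chemerin, was the lower gene among 13 of the retinoic acid list, at 144 and 81.8 against 295 and 203 CPM.

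No gene of the metabolism, mesothelial, AHR and adipogenic lists passed in both libraries, though single genes were past 2-fold in HFD alone. Of 15 glycolysis genes 8 had the interval above 1 in both libraries and 2 had it below, where 26.3% of all measured genes had it above 1. Pgk1, phosphoglycerate kinase, was at 238 and 211 against 146 and 118 CPM. None of 20 cholesterol synthesis genes passed, with a median ratio of 1.10 and 1.08. None of 14 mesothelial genes passed, with medians of 1.26 and 1.10, and Krt14, a basal keratin, came nearest, at 20.6 and 22.3 against 10.5 and 7.69 CPM. None of 12 genes of the AHR pathway passed, and Aldh1a3, an aldehyde dehydrogenase, had ratios of 1.01 in LFD and 0.299 in HFD. Ahr itself was at 21.4 and 22.1 CPM in members and 20.5 and 19.1 CPM in non-cycling cells, and Cyp1b1, an AHR target, at 643 and 778 against 784 and 942 CPM. None of the measured adipogenic genes (9) and of the macrophage (8), T cell (2), endothelial (6) and mural (4) markers passed, while the plasma cell marker Mzb1 was higher.

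Genes that the rule did not use were taken as markers of phase, after thinning to 5000 UMIs. Late mitosis and replication are names of the gene sets here, and not measured stages of a cell. At least 3 of 6 late mitosis genes (Plk1, Ccnb1, Cdc20, Aurka, Cenpe and Kif20a) were found in 34.8% (31.9 to 37.8%) of LFD members and 34.3% (30.9 to 37.8%) of HFD members. At least 3 of 6 replication genes (Mcm3, Mcm5, Mcm6, Gins2, Rrm2 and Cdc6) were found in 21.0% (18.6 to 23.6%) and 20.6% (17.8 to 23.7%). The intervals of the HFD to LFD ratios, 0.837 to 1.16 and 0.795 to 1.21, both held 1. Without thinning the late mitosis shares were 65.5% and 62.6% and the replication shares 49.9% and 50.3%. Among non-cycling cells no cell of 3872 and 2384 had the late mitosis genes, with exact upper limits of 0.0952% and 0.155%. The replication genes were found in 0.413% and 0.420% of non-cycling cells. These cells were chosen for at most 1 of the 10 rule genes, so low shares were close to fixed. Among cycling Ptprc-positive cells replication genes were the more frequent, at 40.5% and 33.4%, against 30.5% and 21.9% for late mitosis genes.

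Members with late mitosis genes alone (337 LFD and 234 HFD cells) were set against members with replication genes alone (192 and 131 cells). They are called late mitosis and replication cells after the gene sets, and their stage of division was not measured. The genes that split them had to differ, and the others are a description. Of 9108 measured genes 109 (1.2%) were at least 2-fold higher in both libraries in the late mitosis cells and 102 (1.12%) were lower. Cenpa stood at 524 and 541 CPM in late mitosis cells and 58.7 and 64.0 CPM in replication cells, ratios of 8.92 (7.77 to 10.3) and 8.45. Cdkn3, a phosphatase of CDKs, was at 202 and 199 against 19.3 and 22.8 CPM. Aspm, of the spindle pole, was at 121 and 165 against 22.6 and 21.9 CPM.

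Ung, which removes uracil from DNA, was at 41.3 and 40.0 CPM in replication cells against 2.01 and 1.88 CPM in late mitosis cells. Ccne2, cyclin E2, was at 26.1 and 37.6 against 2.19 and 3.34 CPM, and Cdt1, a licensing factor, at 55.2 and 68.8 against 9.30 and 6.88 CPM. Hist1h2ap was at 145 and 75.7 against 36.3 and 26.1 CPM, and Ccnd1 at 32.4 and 70.6 against 11.9 and 33.8 CPM. Top2a was nearly level, at 284 and 363 against 312 and 395 CPM. Replication cells were the larger libraries, with medians of 18850 and 25380 UMIs against 14910 and 18740.

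**Figure D4:**
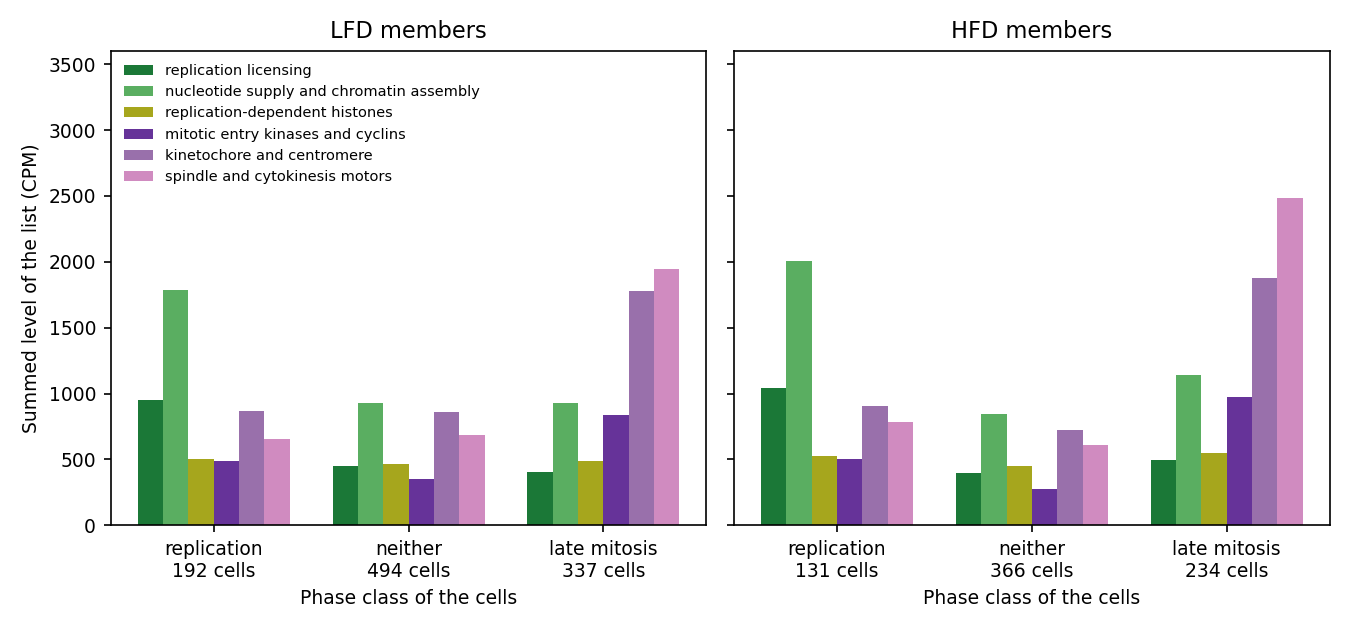
Summed CPM of 6 lists (bars, the 12 phase-defining genes left out) in members with replication genes, with neither set and with late mitosis genes, LFD left and HFD right. Licensing stands at 951 CPM in LFD replication cells and 404 CPM in late mitosis cells, and spindle genes at 655 and 1948 CPM. The sum of the histone list is nearly level, at 506 and 492 CPM, though Hist1h2ap alone stands at 145 and 36.3 CPM.

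A keratin-rich, mesothelial share of the members was larger in HFD. Cells with at least 10 UMIs of Krt7, Krt8, Krt18 and Krt19 per 10000 were 10.0% (8.27 to 12.0%) of LFD and 16.8% (14.2 to 19.7%) of HFD members, a ratio of 1.68 (1.29 to 2.19). Non-cycling cells had the like difference, 6.92% and 14.2%, a ratio of 2.05 (1.74 to 2.41). The cut divides a range and not a type: 93 members in each library lay within a factor of 1.5 of it. The cycling share was 23.5% (19.6 to 27.6%) in LFD and 21.9% (18.6 to 25.5%) in HFD keratin-high cells, and 17.6% and 18.9% in keratin-low cells. Only 0.0631% and 0.0458% of Ptprc-positive cells reached the keratin cut.

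Keratin-high members (106 and 128 cells) differed little from keratin-low members in the division lists. Both were chosen by the same cycle genes, so this likeness was partly fixed. Of 10404 measured genes 168 (1.61%) were at least 2-fold higher in both libraries and 161 (1.55%) were lower, but among the measured genes of the cell cycle lists Ccnd1 alone was higher and Ccnd2 alone lower. Ccnd1 stood at 52.5 CPM in LFD and 99.2 in HFD keratin-high members, against 17.4 and 31.5 CPM in keratin-low members. Ccnd2 was at 12.2 and 11.3 against 28.0 and 30.0 CPM. Mki67, used by the rule, was at 177 and 243 against 170 and 224 CPM. Late mitosis genes were found in 32.1% and 37.5% of keratin-high members and in 35.1% and 33.6% of keratin-low members.

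Mesothelial genes that did not set the cut followed it, with 6 of 9 measured higher. Msln, mesothelin, was at 229 and 230 CPM in keratin-high members against 20.9 and 18.6 CPM in keratin-low members. Krt14 was at 153 and 118 against 5.43 and 3.28 CPM. Upk3b, a uroplakin of mesothelium, was at 187 and 307 against 22.5 and 82.2 CPM. Prg4, lubricin, was at 144 and 122 against 23.6 and 18.9 CPM, and Wt1, used by the rule, at 334 and 352 against 274 and 329 CPM.

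Of 20 collagen and matrix genes 4 were lower in keratin-high members, of 6 adipogenic genes 3, of 13 adipose progenitor genes 2 and of 16 cytokine and acute phase genes 2, and Dpp4, of the progenitor list, was the only higher gene of the 4 lists. Cthrc1, a matrix protein, was at 3.71 and 0.376 CPM against 64.0 and 21.0 CPM. Cxcl12, the chemokine that holds leukocytes in stroma, was at 10.6 and 6.39 against 104 and 53.9 CPM, and Lpl, lipoprotein lipase, at 15.9 and 10.9 against 105 and 90.5 CPM. Pdgfrb, a mural and stromal receptor, was at 6.89 and 4.51 against 30.0 and 15.7 CPM, and Col15a1 at 1.59 and 1.88 against 33.0 and 15.3 CPM. Met, the receptor of hepatocyte growth factor, went the other way, at 40.3 and 65.0 against 16.5 and 26.5 CPM. B and plasma markers were lower in keratin-high members for 6 of 8 genes, and 22 and 14 keratin-low members against 0 and 1 keratin-high members held over 30 such UMIs per 10000.

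The diet comparison within the members asked whether dividing Wt1-positive cells of the HFD library differed from those of the LFD library. Of 11801 genes with at least 50 UMIs over both libraries (rule genes left out), 237 (2.01%) were at least 2-fold higher in HFD and 185 (1.57%) at least 2-fold lower. The median gene stood 0.13 higher in HFD on the log2 scale. With median-ratio scaling, which takes out this shift, the numbers were 167 higher and 259 lower. Of 176 measured genes of the cell cycle lists 1 was higher (Ccnd1) and 1 lower (Hist1h2ap). Their median ratio was 1.04, and 146 lay between 0.8 and 1.25. The list of CDK inhibitors and quiescence genes is not among these lists.

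Most division genes were at nearly equal levels. Members of both libraries were chosen by the same cycle genes. Like levels of genes that travel with these were therefore partly fixed and test no effect of diet. Hmmr (chr11:40701395-40733422 in GRCm38) was at 163 CPM in LFD and 162 in HFD members, a ratio of 0.994 (0.943 to 1.05), Ccnb1 at 145 and 131 CPM, 0.903 (0.852 to 0.956), and Pcna at 199 and 207 CPM. Ccnd1 (chr7:144929931-144939925) was at 21.0 and 42.7 CPM, a ratio of 2.03 (1.79 to 2.31), and keratin-low non-cycling cells had a ratio of 2.32. Ccnd1 was under 2-fold within keratin-high members (1.89) and within keratin-low members (1.81), and the scaling factor of 1.09 in median-ratio scaling also takes it under 2-fold. Hist1h2ap (chr13:21833026-21833507) had a ratio of 0.458 (0.414 to 0.506), with a UMI in 344 LFD and 195 HFD members, and 0.863 in keratin-low non-cycling cells. Cdkn1c, the CDK inhibitor p57, was at 10.1 and 3.67 CPM, a ratio of 0.363.

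Ratios in members and in keratin-low non-cycling cells come from the same pair of libraries, so they share whatever set those libraries apart.

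Among 14 mesothelial genes 4 were higher in HFD members, among 14 adipose progenitor genes 4, and in neither list was any lower. Upk3b went from 39.5 to 120 CPM, a ratio of 3.03, Upk1b from 55.2 to 149 CPM, Lrrn4 from 106 to 247 CPM, and Muc16 also passed. Dlk1, a brake on adipogenesis, went from 8.87 to 30.4 CPM, a ratio of 3.43, and the progenitor genes were Cd34, Pi16, Dpt and Clec3b. Cd34 was at 165 and 331 CPM. The keratin-high share was also larger in HFD members, and the split by keratins changed several of these calls. Within keratin-high members the ratio was 1.65 for Upk3b, 1.90 for Upk1b, 1.43 for Lrrn4 and 1.27 for Cd34, under 2-fold for each, and within keratin-low members it was 3.65, 2.59, 2.53 and 2.15. Muc16 had 1.57 in keratin-high and 0.733 in keratin-low members, and Clec3b 0.602 and 3.34.

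Of 18 cytokine and acute phase genes 5 were lower in HFD members and none higher, and of 20 collagen and matrix genes 3 were lower and 2 higher, with a median ratio of 1.09. Saa3 was at 9623 and 2658 CPM, a ratio of 0.276, with a UMI in 1058 of the LFD and 702 of the HFD members. Lcn2, lipocalin 2, was at 37.2 and 14.7 CPM, Cxcl12 at 94.2 and 46.04 CPM and Cxcl13 at 40.0 and 14.7 CPM, and Ccl11 also passed. Timp1 was at 2416 and 745 CPM, a ratio of 0.309. Col15a1 and Mmp2 were lower, at 13.1 and 6.91 CPM in HFD, and Col14a1 and Postn higher. Col14a1 had a ratio of 0.129 (0.0139 to 0.591) in keratin-high and 3.01 in keratin-low members. Hp, haptoglobin, was at 248 and 25.6 CPM, a ratio of 0.103 (0.0931 to 0.114).

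In the AHR pathway 2 of 12 genes were higher in HFD members and none lower. Cyp1a1 was at 7.28 and 21.4 CPM, a ratio of 2.94, with a UMI in 65 of 1059 and 117 of 762 members, and 1.53 in keratin-low non-cycling cells. In keratin-high members Cyp1a1 was at 6.36 and 42.1 CPM, a ratio of 6.62 (3.64 to 13.2), and in keratin-low members at 7.38 and 17.3 CPM, a ratio of 2.34. Nqo1, a quinone reductase, was at 23.4 and 68.0 CPM, 2.90. Ahr was at 21.4 and 22.1 CPM. Ahrr, the AHR repressor, was at 12.5 and 23.3 CPM. Crabp2, which carries retinoic acid, and Cyp26b1, which degrades it, were lower, Crabp2 at 23.0 and 8.40 CPM, with a ratio of 1.52 (0.782 to 3.10) in keratin-high and 0.316 in keratin-low members. Areg and Btc, ligands of the EGF receptor, were higher, Areg at 3.72 and 9.27 CPM, and Btc had a ratio of 0.819 (0.363 to 1.87) in keratin-high and 3.56 in keratin-low members. None of 15 glycolysis, 20 cholesterol synthesis and 15 immediate early genes passed. Lyz2, C1qa, C1qb and Fcgr3 were lower among 7 measured macrophage markers, and all 9 listed summed to 117 and 61.4 CPM.

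**Figure D5:**
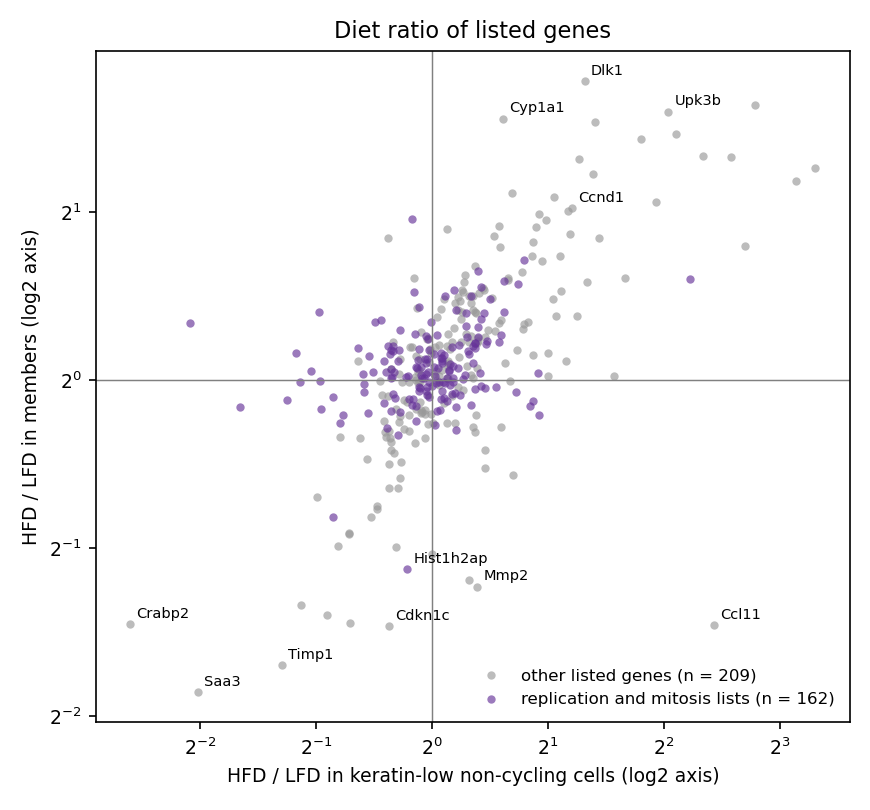
HFD to LFD ratio in members (vertical, log2 axis) against the same ratio in keratin-low non-cycling cells (horizontal, log2 axis), 1 point per listed gene, replication and mitosis lists in purple and other lists in grey. On the vertical axis purple points run from 0.458 (Hist1h2ap) to 1.94 (Kif18b), Saa3 and Timp1 lie below 1 on both axes, and Ccl11 lies at 0.363 in members and 5.39 in keratin-low non-cycling cells.

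The 12 highest by rule were Pnoc, Aqp5, Ccl20, Igfbp5, Hopx, Pla1a, Gata3, Prph, Samd5, Limch1, Hspa1b and Sfrp4. Pnoc, the precursor of nociceptin, was at 15.2 and 314 CPM, a ratio of 20.7 (18.3 to 23.4), with a UMI in 78 LFD and 385 HFD members, and 12.7 in keratin-low non-cycling cells. Aqp5, a water channel, was at 7.93 and 93.6 CPM, with a UMI in 86 and 385 members. Igfbp5, which binds insulin-like growth factors, went from 5.42 to 35.9 CPM, a ratio of 6.63 (5.35 to 8.29). Gata3, a transcription factor, was at 0.711 and 4.48 CPM, in 13 and 56 members. Ccl20, a chemokine, had a UMI in 10 and 21 members, and 5 of the HFD members held 76.2% of its counts. Without cells holding a UMI of Clec3b, Pi16, Dpp4 or Col14a1 the ratio of Pla1a was 1.84 against 7.20, under the threshold, that of Sfrp4 2.76 against 6.54, that of Limch1 3.10 and that of Pnoc 13.7. Without the 5 members of each library with most counts of the gene, Pla1a had a ratio of 21.0, Hopx of 24.4 against 8.61 and Prph of 34.1 against 7.11. With the highest doublet scores removed Pla1a had a ratio of 4.18. In keratin-high members alone Samd5 had a ratio of 1.11 against 4.22 and Ccl20 of 2.13 (0.7352 to 7.485) against 12.9. Pnoc had a ratio of 31.4 in keratin-high and 16.5 in keratin-low members.

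The 12 lowest were Lcn8, Gpx5, Spp1, Spag11b, S100a8, Defb20, S100a9, Teddm1a, Hp, Defb48, Gm6093 and Car4. Lcn8, Gpx5, Spag11b, Defb20, Teddm1a and Defb48 are known from the epididymis. Of their 676 counts in LFD members 666 (98.5%) lay in 1 member with 19655 UMIs and 8 of the 10 cycle genes, which the doublet caller did not mark, so these 6 genes describe that cell. Whether it is a mixed droplet was not tested. Lcn8 was listed at 0 in HFD members. S100a8 and S100a9, of neutrophils, were at 20.3 and 24.3 CPM in LFD members, where 5 members held 80.1% and 83.1% of the counts. Spp1, osteopontin, was at 114 and 2.74 CPM, with a UMI in 140 LFD and 36 HFD members. Hp had a UMI in 585 LFD and 151 HFD members, and RNA from outside the cells was not estimated. In keratin-high members alone the ratio was 0.180 for Hp, 0.210 for Spp1 and 0.454 for Car4. There it was 0.236 (0.0233 to 1.32) for S100a8 and 0.355 (0.00601 to 6.81) for S100a9. In keratin-low members alone it was 0.0391 for Car4, and without the 5 members of each library with most of its counts 0.0266, against 0.107 in all members. The latter alternative took S100a9 from 0.0256 to 0.0758.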

How the data were processed

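Live eYFP+ cells of the gWAT stromovascular fraction were measured as 1 single-cell library per diet. The authors deposited raw UMI counts per gene and barcode, whole numbers with no normalization, made with Cell Ranger 4.0.0 and STAR on build mm10 per the submitters' processing notes, which also name bcl2fastq 2.17.1.14 and Seurat 4.1.0. Of 32285 gene IDs, 32235 were found in GENCODE M21.

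Cells with 500 to 40000 UMIs, at least 100 genes and under 12.5% mitochondrial UMIs were kept. Doublets were scored with Scrublet (scanpy 1.11.5) at 0.8% per 1000 barcodes and kept in the main results. Counts were summed per library and class and divided by the class total (CPM). Shares have Clopper-Pearson, levels exact Poisson and ratios exact conditional binomial 95% intervals (scipy 1.17.1). Genes at least 2-fold apart with the interval beyond 1 are counted. Thinning drew 5000 UMIs per cell, and shallower cells were left out (7 LFD and 6 HFD members, 87 and 88 non-cycling cells).

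Alternatives varied the gene, UMI, mitochondrial and keratin thresholds, scaling, doublets and thinning, and 5 were added after seeing the data. The 29 gene lists and the members were chosen with earlier results of these data known. Library and diet cannot be told apart. Genes were named by rule: the 12 most and 12 least extreme per comparison by the interval bound nearest 1, immunoglobulins left out for diet, the 12 highest outside the cell cycle lists, and from each list the extremes and the most abundant. Genes named beyond these were chosen for their roles after their values were seen.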

Additional observations from a re-analysis of the deposited data

Results flagged for a closer look

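The 5 genes Ccl20, S100a8, S100a9, Spp1 and Ccl11 are listed here because they moved in opposite directions in the 2 libraries, each by at least 1.5-fold, and the difference was not tested since each diet has 1 library. Ccl20 had a ratio of members to non-cycling cells of 0.318 in LFD and 4.68 in HFD, and 5 HFD members held 76.2% of its counts there. S100a8 had ratios of 2.38 and 0.162 and S100a9 of 2.59 and 0.187, with 80.1% and 83.1% of the LFD member counts in 5 cells. Spp1 had ratios of 1.80 and 0.224, with 30.8% of its LFD counts in 5 members. Ccl11, eotaxin, had ratios of 1.77 and 0.129, and its HFD to LFD ratio was 0.363 in members and 5.39 in keratin-low non-cycling cells. It had a UMI in 37 LFD and 19 HFD members, and 60.7% and 64.1% of its counts lay in 5 cells.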

How the results depend on the processing

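No paired analysis was possible because each diet has 1 library, and no replicate could be left out. Precision is limited by counting error and by that single library, and depth differed between libraries. The cycling share in LFD and HFD was 22.8% and 24.5% with 3 of the 10 genes, 15.8% in both with 5, 16.8% and 15.5% (ratio 0.924) under 25000 UMIs, 29.6% and 23.2% (0.784) under 5% mitochondrial UMIs, and 20.5% and 20.7% after thinning. Alternatives chosen after seeing the data gave 24.6% in HFD (ratio 1.40) without cells holding Clec3b, Pi16, Dpp4 or Col14a1, and 14.1% in HFD (0.823) at 10000 to 20000 UMIs. The keratin-high share of members was 18.9% and 27.4% at a cut of 5 per 10000 and 4.06% and 6.43% at 20. The late mitosis share was 65.5% and 62.6% without thinning and 51.6% and 46.3% with 2 of 6 genes, and the replication share 49.9% and 50.3%, and 37.5% and 37.6%. Genes lower in members numbered 163 with at least 200 UMIs and 193 in cells of 10000 to 25000 UMIs. Without the cells holding a UMI of any of Clec3b, Pi16, Dpp4 and Col14a1 they numbered 137. There Pdgfrl turned to a ratio of 1.09 in HFD, and Sfrp1 (0.662) and Mfap4 (0.658) lost the HFD call. Genes at least 2-fold apart by diet numbered 116 higher and 74 lower with at least 200 UMIs, and 58 lower in keratin-high members alone. Higher genes in members numbered 399 to 534 under the alternatives. Median-ratio scaling moved the split of diet genes from 56.2% to 39.2% higher. The causes were not tested. The ratio of Pif1 could not be given under 4 alternatives, where non-cycling cells held none of its UMIs.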
